A study of Mus musculus with 12 samples.

Results

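Histone acetyltransferases and readers of acetylated histones were followed in calvaria, the bone of the skull roof, from C57BL/6 mouse embryos at day 17.5 of gestation. The set held 9 genes, chosen by name with earlier results of these data known. It held the acetyltransferases Ep300, Crebbp, Kat2a, Kat2b, Kat5, Kat6a and Kat7, the SAGA subunit Tada2b and the bromodomain protein Brd2. These genes are 9 of the 39179 gene identifiers counted, and all 9 were among the 17967 genes with enough counts to be tested. RNA sequencing gave 12 libraries in 4 groups of 3. Wild-type (WT) and Runx2+/- embryos each came from dams given vehicle or MS-275, and the groups are called WT vehicle, Runx2+/- vehicle, WT MS-275 and Runx2+/- MS-275. MS-275 (entinostat) inhibits class I histone deacetylases. Dams received 10 mg per kg intraperitoneally on 14.5 and 16.5 days post coitum, and the drug reached the embryos only through the dam. Runx2 encodes a transcription factor that osteoblasts require, and Runx2+/- embryos are heterozygous for a mutant allele. Parents were mated at 8 weeks of age. The labels do not say whether the libraries of a group came from separate embryos or litters, so p-values measure only the spread between these samples.

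Acetyltransferases transfer acetyl groups to lysines of histone tails, deacetylases remove them, and bromodomain proteins bind the acetylated lysines. Ep300 and Crebbp are paralogous coactivators that act at enhancers, Kat2a and Kat2b are alternative catalytic subunits of the SAGA and ATAC complexes, and Kat5, Kat6a and Kat7 belong to the MYST family. Brd2 is one of the BET proteins, which read acetylated histones and help RNA polymerase II through transcription. In bone, Ep300 and Crebbp are known as coactivators of Runx2.

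With MS-275, 3 of the 9 genes lay lower in all 6 libraries than in any of the 6 vehicle libraries: Tada2b, Brd2 and Kat7. None lay higher in all 6. The same 3 genes were found with DESeq2's size factors, which added Kat2b as higher, and with scaling by total count. Over all tested genes, 3.27% lay lower and 2.61% higher in this way, 3.19% and 2.87% with DESeq2's size factors, and 8.44% and 0.568% with scaling by total count. Their promoters are printed to give the sequence just upstream of the genes that separated the treatments. The RefSeq promoter table (GRCm38.p6) matched 8 of the 9 genes; Kat6a was not matched. Each run is read 5′ to 3′ on the gene's strand, ends at the base before the annotated start of the gene, and lies outside the gene in GENCODE M21. Capitals mark matches to the motifs named in the next paragraph, on either strand.

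Tada2b, chr5:36484286-36484535, minus strand: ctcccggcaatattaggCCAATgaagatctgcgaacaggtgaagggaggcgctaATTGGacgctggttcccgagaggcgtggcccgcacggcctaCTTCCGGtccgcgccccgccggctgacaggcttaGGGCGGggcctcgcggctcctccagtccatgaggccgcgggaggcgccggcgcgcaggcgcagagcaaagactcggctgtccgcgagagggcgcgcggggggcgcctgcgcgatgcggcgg

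Brd2, chr17:34122635-34122857, minus strand: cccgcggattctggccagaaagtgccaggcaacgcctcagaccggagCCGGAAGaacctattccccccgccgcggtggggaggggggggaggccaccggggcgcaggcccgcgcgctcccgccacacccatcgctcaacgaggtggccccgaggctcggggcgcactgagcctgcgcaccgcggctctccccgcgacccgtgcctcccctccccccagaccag

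Kat7, chr11:95310247-95310496, minus strand: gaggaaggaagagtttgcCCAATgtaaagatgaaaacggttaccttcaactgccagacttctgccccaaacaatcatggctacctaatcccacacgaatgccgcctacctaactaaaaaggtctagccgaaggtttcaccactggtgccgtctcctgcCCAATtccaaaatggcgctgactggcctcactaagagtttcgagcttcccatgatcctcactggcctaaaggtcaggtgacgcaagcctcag

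In windows of 250 bases, 7 motifs were searched on both strands. These were the cAMP response element TGACGTCA, found in 1.55% of all 32851 windows of this length, and the CCAAT box, its letters being its name, found in 33.8%. The GC box is GGGCGG and was found in 32.7% of all windows, and the TATA box, spelled TATAAA, in 12.4%. The E-box is CACGTG and was found in 6.02%, the ETS site, spelled CCGGAAG, in 6.91%, and the RUNX site, spelled TGTGGT, in 14.0%. The Tada2b window held 2 CCAAT boxes, 1 GC box and 1 ETS site, and the Kat7 window held 2 CCAAT boxes. The Brd2 window at this start, 1 of 3 that the table lists for the gene, held 1 ETS site; its last 27 bases lie inside the GENCODE gene and are not printed. None of the 3 windows held the RUNX site, the TATA box or the cAMP response element. A match is a run of letters and not a shown binding site. The Tada2b and Brd2 windows were 71.6% and 73.6% G and C, above the median of 52.4%, and the Kat7 window was 50.8%.

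Levels are given as CPM, read counts relative to the library total after scaling by trimmed mean of M values, and fold changes on the log2 scale. Total counts in genes were 13307456 to 19399760 per library, and the least counted of the 9 genes, Tada2b, had 99 to 418 counts. Runx2 itself stood at 45.5, 42.4 and 46.1 CPM in WT vehicle, while Runx2+/- vehicle had 65.3, 32.8 and 58.1. With MS-275 it stood at 111, 131 and 88.2 in WT and at 84.1, 93.5 and 34.1 in Runx2+/-. Its level therefore did not separate the genotypes, and the labels do not say which part of the gene is altered. Osteoblast markers (8 genes) summed to 5717 to 8330 CPM in WT vehicle, 4234 to 12125 in Runx2+/- vehicle and 44200 to 50076 in WT MS-275. The library labelled Runx2+/- MS-275 replicate 3 stood apart, with 1713 CPM of these markers against 51303 and 25621 in replicates 1 and 2. Epidermal markers (8 genes) summed to 1177 to 4060 CPM in vehicle libraries, to 7.62 to 16.0 in 5 MS-275 libraries and to 1745 in that replicate 3. Lens markers (5 genes) summed to 732 to 1028 CPM in 4 vehicle libraries and to 6.70 to 10.9 in 5 MS-275 libraries, but to 683 in that replicate 3. WT vehicle replicate 3 and Runx2+/- vehicle replicate 3 stood apart as well, with 12.5 and 15.3 CPM of lens markers. Neuron markers (7 genes) were at 97.3 and 249 CPM in these 2 libraries, at 757 to 1534 in the other vehicle libraries, at 25.7 to 263 in 5 MS-275 libraries and at 969 in Runx2+/- MS-275 replicate 3. Erythroid markers (5 genes) summed to 833 to 2922 CPM with vehicle, to 1665, 4004 and 7707 in WT MS-275 and to 6680, 3812 and 740 in Runx2+/- MS-275. The library labelled Runx2+/- MS-275 replicate 3 thus lay within the range of the vehicle libraries for epidermal, lens and neuron markers and below it for osteoblast and erythroid markers, against its treatment label, while its Tada2b and Brd2 levels lay within the range of the other MS-275 libraries. Whether its label is right was not tested. Klk7 was at 0 in all WT MS-275 libraries. Mitochondrially encoded transcripts took 4.32% to 5.52% of counts with vehicle and 9.48% to 24.2% with MS-275, and Xist was abundant in all 3 Runx2+/- MS-275 libraries (29300 to 79127 counts) but only in some of each other group. The part of tissue makeup, RNA composition and sex in the differences below was not tested. In bulk RNA, fewer cells of a type and less RNA per cell cannot be told apart.

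**Figure D1:**
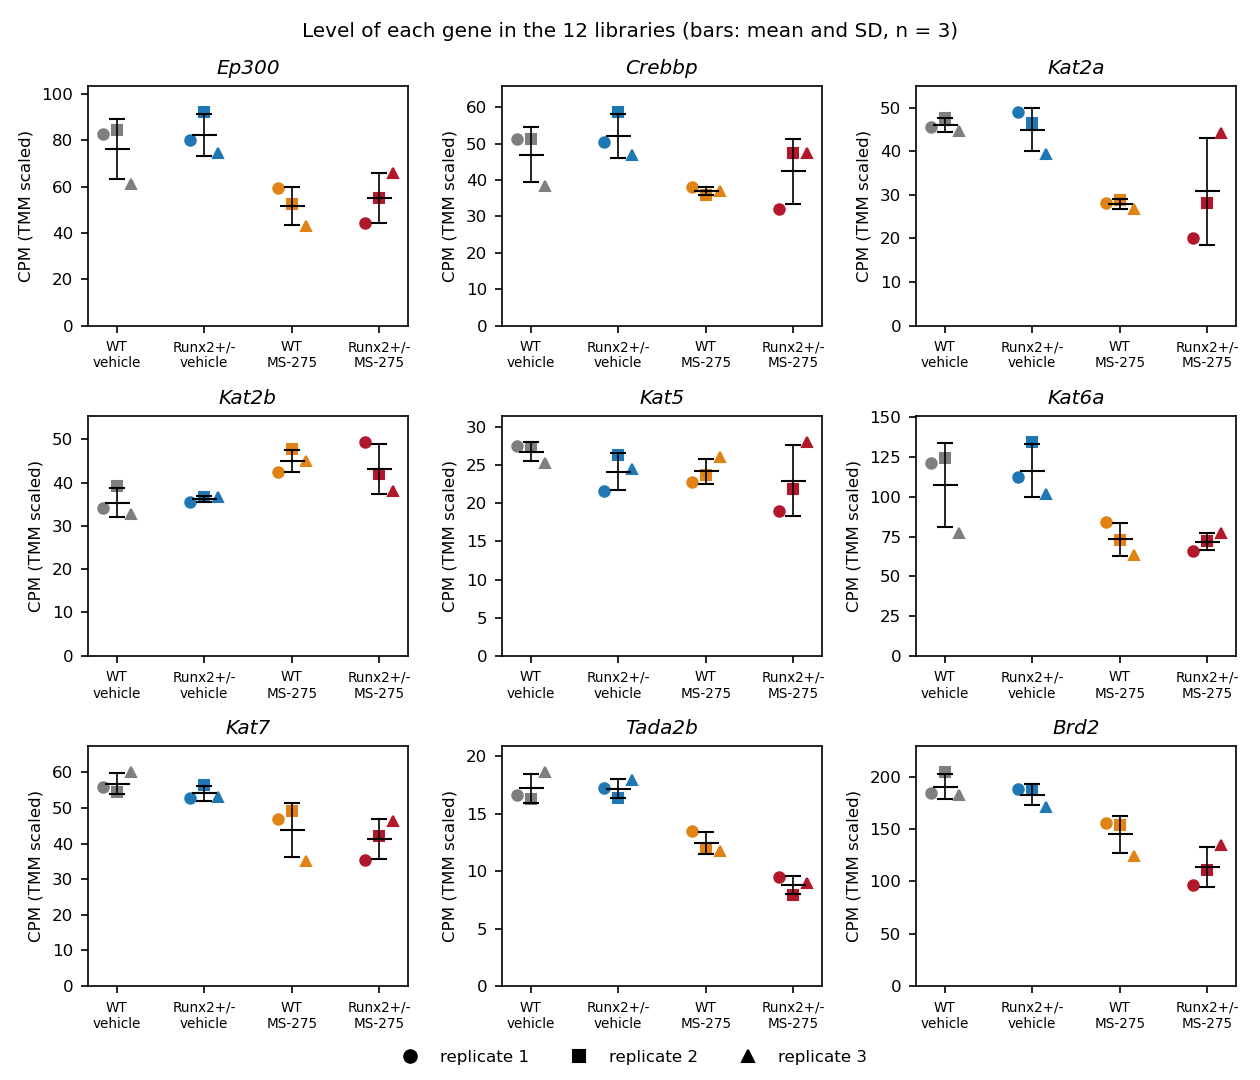
Level of each of the 9 genes in the 12 libraries, in CPM on linear axes from 0, by group. Points are libraries with the replicate number as the shape, and bars are the mean and SD of 3 libraries. Tada2b, Brd2 and Kat7 sit lower in every MS-275 library than in every vehicle library, and Kat2a in Runx2+/- MS-275 replicate 3 sits at 44.3 CPM, among the vehicle libraries.

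In WT embryos, 0 of the 9 genes passed the test for MS-275 against vehicle (edgeR quasi-likelihood test, adjusted p under 0.05 over all tested genes), where 19.0% of all tested genes did. At an unadjusted p under 0.05, 6 of the 9 were lower and 1 higher, beside 47.4% of all genes. DESeq2 called 6 of the 9, beside 40.2% of all genes, and limma-voom 0, beside 0.00557%. In Runx2+/- embryos, 0 of the 9 and 0% of all genes passed edgeR's test. There, 6 of the 9 were lower and 0 higher at an unadjusted p under 0.05, beside 21.0% of all genes. DESeq2 called 3 of the 9, beside 7.12% of all genes, and limma-voom 0, beside 0%. The median log2 fold change of the 9 was −0.40 in WT and −0.54 in Runx2+/-, beside −0.13 and −0.04 over all genes. Without Runx2+/- MS-275 replicate 3, edgeR called 6 of the 9 in WT and 5 in Runx2+/-, where 46.6% and 32.7% of all genes were called. Within WT, MS-275 and vehicle libraries did not overlap for 6 of the 9 lower and 1 higher, beside 27.5% and 27.3% of all genes. Leaving out any 1 of 8 libraries left 0 genes called in WT, so each WT call of a partner gene named here is lost without any 1 of them: WT vehicle replicate 1 or 2, Runx2+/- vehicle replicate 1 or 2, any WT MS-275 library, or Runx2+/- MS-275 replicate 2. Without Runx2+/- vehicle replicate 3 the number of genes called in WT was 2021 in place of 3414. Within Runx2+/-, MS-275 and vehicle libraries did not overlap for 5 of the 9 lower and 1 higher, beside 8.56% and 6.33% of all genes.

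Averaged over both genotypes, 6 MS-275 against 6 vehicle libraries, the same fit called 6 of the 9 genes lower and 1 higher, beside 18.0% and 21.1% of all tested genes. This comparison was added after the single-genotype results had been seen. The 6 that fell were Tada2b, Brd2, Kat6a, Ep300, Kat2a and Kat7, and the 1 that rose was Kat2b; Crebbp and Kat5 did not pass. Their median log2 fold change was −0.54, beside −0.10 over all genes. With each library left out in turn, 5 to 8 of the 9 genes were called, and 20.4% to 61.7% of all genes. Leaving out Runx2+/- MS-275 replicate 3 gave 8, where 61.7% of all genes were called. Tada2b, Brd2, Kat6a, Ep300 and Kat2a were called in all 20 settings tried. The share of all genes called in all 20 was not counted, and the settings share most of their libraries.

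**Figure D2:**
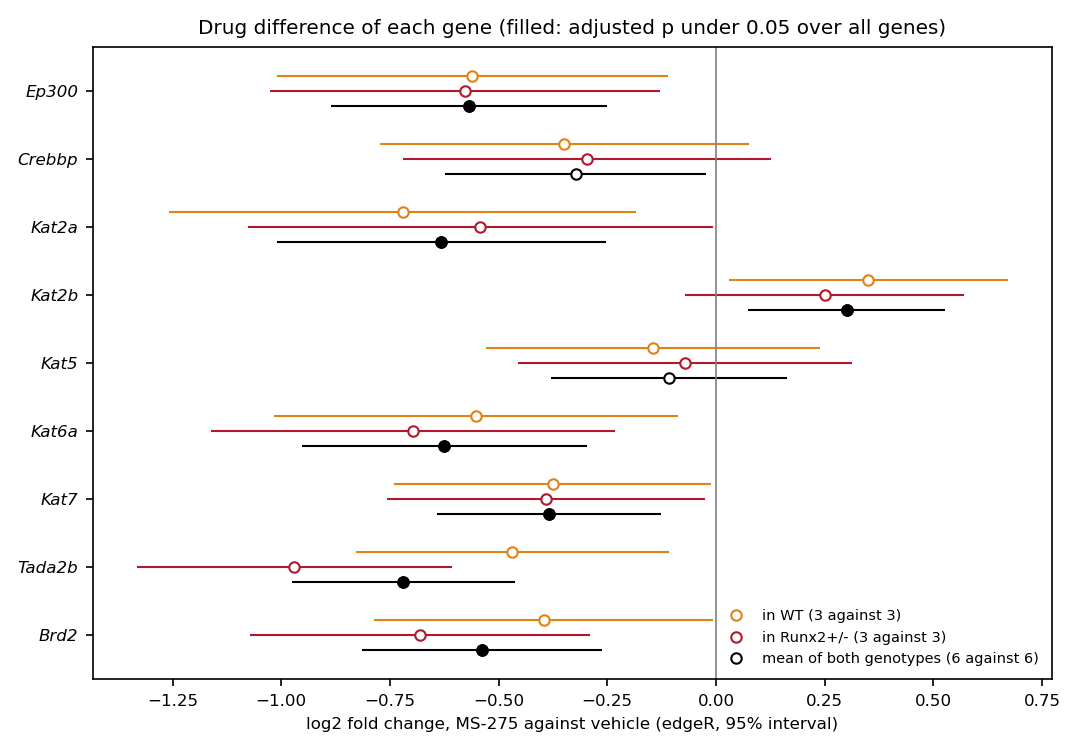
Log2 fold change of MS-275 against vehicle for each gene, with edgeR's 95% interval, in WT, in Runx2+/- and as the mean of both genotypes. Filled points passed an adjusted p under 0.05 over all tested genes. All single-genotype points are open, and the mean of both genotypes is filled for 7 of the 9 genes, with Kat2b alone to the right of 0.

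Ep300 encodes the coactivator p300. Its level was 82.5, 84.6 and 61.2 CPM in WT vehicle, 80.2, 92.3 and 74.6 in Runx2+/- vehicle, 59.2, 52.5 and 43.0 in WT MS-275 and 44.4, 55.2 and 66.0 in Runx2+/- MS-275. Within each genotype every MS-275 library was below every vehicle library, but WT vehicle replicate 3, at 61.2 CPM, was below the highest Runx2+/- MS-275 library. The log2 fold change was −0.56 (SE 0.20, edgeR adjusted p 0.0639) in WT and −0.58 (SE 0.20, adjusted p 0.186) in Runx2+/-. Over both genotypes Ep300 fell by 0.57 on the log2 scale, 1.48-fold lower (SE 0.14, edgeR adjusted p 0.0166). Leaving out WT vehicle replicate 3, the lowest vehicle library for Ep300, enlarges the fall by construction, so its p-values add no support. The change in WT was then −0.69 (edgeR adjusted p 0.0441), and over both genotypes −0.64 (adjusted p 0.0167).

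Crebbp encodes CBP, the paralogue of p300. With vehicle it was at 51.3, 51.3 and 38.3 CPM in WT and 50.4, 58.8 and 46.9 in Runx2+/-. With MS-275 it was at 38.0, 35.8 and 36.9 CPM in WT and 32.0, 47.5 and 47.5 in Runx2+/-. The WT groups did not overlap, and the Runx2+/- groups did. Its log2 fold change was −0.35 (SE 0.19, edgeR adjusted p 0.166) in WT and −0.32 (SE 0.14, adjusted p 0.0773) over both genotypes, with a 95% interval of −0.62 to −0.02. Without Runx2+/- MS-275 replicate 3 the latter was −0.37, with an edgeR adjusted p of 0.0384, and without WT vehicle replicate 3 it was −0.39, with an adjusted p of 0.0414. These were the highest MS-275 and the lowest vehicle library for Crebbp, so leaving either out enlarges the fall by construction. Over the 20 settings tried the adjusted p was 0.0145 to 0.170.

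The balance of the 2 paralogues shifted. The count ratio of Ep300 to Crebbp within a library does not depend on library scaling. Its log2 value was 0.68, 0.72 and 0.67 in WT vehicle, 0.67, 0.65 and 0.67 in Runx2+/- vehicle, 0.64, 0.55 and 0.22 in WT MS-275 and 0.47, 0.22 and 0.48 in Runx2+/- MS-275. All 6 MS-275 libraries were below all 6 vehicle libraries, but the gap between the treatments was narrow, from 0.642 to 0.651. The ratio fell by 0.25 on the log2 scale. The exact two-sided permutation test within genotype gave p = 0.005, the smallest its 400 arrangements allow, and 0.0175 after Benjamini-Hochberg adjustment over 7 gene ratios. Over both genotypes edgeR called 39.1% of all tested genes. How often the ratios of other gene pairs shift as much was not counted, for this ratio or for the ratios below.

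Kat2a encodes GCN5. In WT its vehicle libraries had 45.7, 47.7 and 44.7 CPM and its MS-275 libraries 28.2, 28.9 and 26.7, with a wide gap between the groups. In Runx2+/- it was at 49.1, 46.4 and 39.5 CPM with vehicle and at 20.2, 28.1 and 44.3 with MS-275. Replicate 3 of the latter lay among the vehicle libraries. The log2 fold change was −0.72 (SE 0.24, edgeR adjusted p 0.0554) in WT, −0.54 (SE 0.24, adjusted p 0.233) in Runx2+/- and −0.63 (SE 0.17, adjusted p 0.0199) over both. Without that replicate 3, Kat2a changed by −0.90 in Runx2+/- (edgeR adjusted p 0.00664) and by −0.72 in WT (adjusted p 0.00623), with an SE in WT of 0.15 in place of 0.24. It was the highest MS-275 library for Kat2a, so leaving it out enlarges the fall in Runx2+/- by construction. Over the 20 settings tried, adjusted p values for Kat2a were 0.0066 to 0.712 in Runx2+/- and 0.00623 to 0.150 in WT.

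Kat2b encodes PCAF, the other catalytic subunit of these complexes, and was the 1 gene of the set that was higher with MS-275. It was at 34.2, 39.1 and 32.7 CPM in WT vehicle, 35.5, 36.7 and 36.7 in Runx2+/- vehicle, 42.4, 47.6 and 45.0 in WT MS-275 and 49.4, 42.0 and 38.1 in Runx2+/- MS-275. Groups did not overlap within either genotype. Its log2 fold change was 0.35 (SE 0.15, edgeR adjusted p 0.0859) in WT and 0.25 (SE 0.15, adjusted p 0.343) in Runx2+/-. Over both genotypes it rose by 0.30 on the log2 scale (SE 0.10, edgeR adjusted p 0.0413), but turned to −0.38 when libraries were scaled by total count alone. That call held without Runx2+/- MS-275 replicate 3 and was lost (edgeR adjusted p 0.0548 to 0.0999) when any other single library was left out.

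The ratio of Kat2b to Kat2a, which no scaling touches, moved by almost 1 log2 unit. It was −0.42, −0.29 and −0.45 in WT vehicle, −0.47, −0.34 and −0.11 in Runx2+/- vehicle, 0.59, 0.72 and 0.76 in WT MS-275 and 1.29, 0.58 and −0.22 in Runx2+/- MS-275. Thus 5 of the 6 MS-275 libraries were above all vehicle libraries, and Runx2+/- MS-275 replicate 3 lay within their range. The difference was 0.96 (exact two-sided permutation test, p = 0.01, adjusted p 0.0233). Per length of annotated exons, Kat2a in WT was at 13.2 ± 0.439 CPM per kb (SD, n = 3) with vehicle and 8.02 ± 0.330 with MS-275, and Kat2b at 7.26 ± 0.690 and 9.25 ± 0.534, so their order was inverted without overlap in WT.

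Tada2b encodes the adaptor that joins the acetyltransferase to SAGA, while its paralogue Tada2a does so in ATAC. Tada2b was at 16.7, 16.3 and 18.6 CPM in WT vehicle, 17.2, 16.4 and 18.0 in Runx2+/- vehicle, 13.5, 12.0 and 11.7 in WT MS-275 and 9.47, 7.90 and 8.97 in Runx2+/- MS-275. Every MS-275 library was below every vehicle library, the replicate 3 that stood apart included, and the Runx2+/- MS-275 libraries were all below the WT ones, though not when scaled by total count. The log2 fold change was −0.47 (SE 0.16, edgeR adjusted p 0.0588) in WT and −0.97 (SE 0.16, adjusted p 0.181, unadjusted p 1.17e-04) in Runx2+/-. By unadjusted p, Tada2b ranked 3 of the 17967 genes in Runx2+/-. Over both genotypes it fell by 0.72 on the log2 scale, 1.65-fold lower (SE 0.12, edgeR adjusted p 0.0135), and ranked 53 of all genes by p.

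The Tada2b ratio to Tada2a separated the treatments further. Tada2a, at 25.7 to 31.6 CPM with vehicle and 32.4 to 36.4 with MS-275, rose by 0.29 on the log2 scale over both genotypes (SE 0.10, edgeR adjusted p 0.0393), but was at −0.35 when scaled by total count alone. The log2 count ratio was −0.73, −0.68 and −0.62 in WT vehicle, −0.58, −0.71 and −0.81 in Runx2+/- vehicle, −1.28, −1.45 and −1.63 in WT MS-275 and −1.82, −2.03 and −2.01 in Runx2+/- MS-275. All MS-275 libraries were below all vehicle libraries, and the share of other gene pairs that separated in this way was not counted. The ratio fell by 1.01 on the log2 scale (exact two-sided permutation test, p = 0.005, the smallest possible, adjusted p 0.0175), by 0.78 in WT and by 1.25 in Runx2+/-. Exons of Tada2b share 411 of 3791 bases with Grpel1, a gene for a mitochondrial import factor on the opposite strand, and whether counting used strand is not stated by the labels. In WT, Grpel1 averaged 41.3 CPM with vehicle and 97.0 with MS-275 (log2 fold change 1.23, edgeR adjusted p 0.0508), and its part in the Tada2b counts was not tested.

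**Figure D3:**
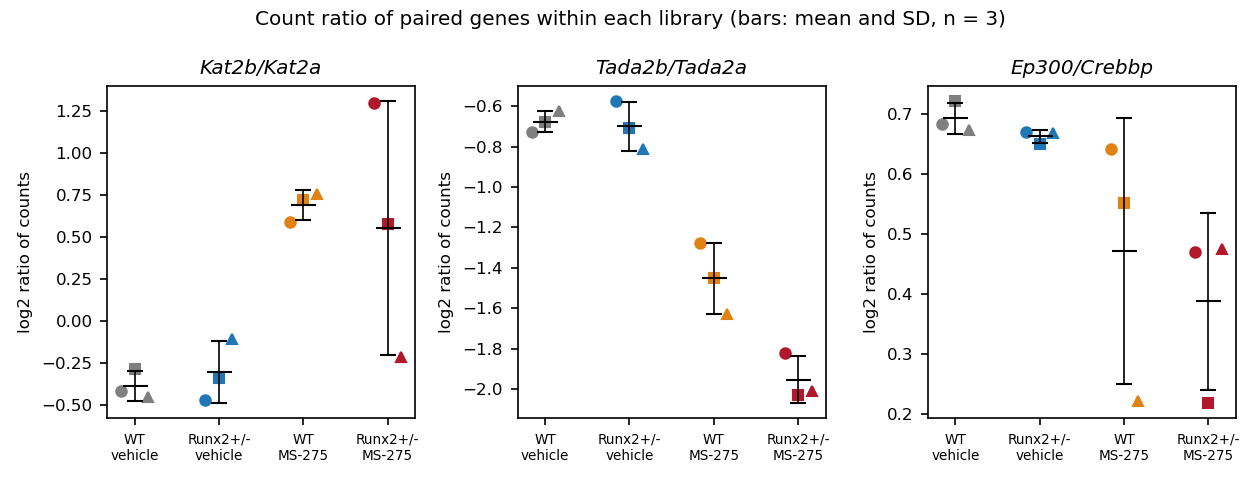
Log2 count ratio of 3 gene pairs within each library, by group; axes do not start at 0. Points are libraries with the replicate number as the shape used for the levels, and bars are the mean and SD of 3 libraries. Tada2b/Tada2a lies at −0.81 to −0.58 with vehicle and −2.03 to −1.28 with MS-275, and Kat2b/Kat2a overlaps only through Runx2+/- MS-275 replicate 3.

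Kat6a (MOZ) was at 121, 125 and 77.0 CPM in WT vehicle, 112, 135 and 102 in Runx2+/- vehicle, 83.9, 73.0 and 63.1 in WT MS-275 and 65.9, 72.4 and 76.9 in Runx2+/- MS-275. Only WT vehicle replicate 3 lay within the range of the MS-275 libraries. The log2 fold change was −0.55 (SE 0.21, edgeR adjusted p 0.0703) in WT and −0.70 (SE 0.21, adjusted p 0.181) in Runx2+/-. Over both genotypes Kat6a fell by 0.62 on the log2 scale, 1.54-fold lower (SE 0.15, edgeR adjusted p 0.0148). Without WT vehicle replicate 3, low in lens and neuron markers, Kat6a was at −0.74 in WT (edgeR adjusted p 0.0439) and −0.72 over both genotypes (adjusted p 0.0167). It was also the lowest vehicle library for Kat6a, so leaving it out enlarges the fall by construction. The part of that library's tissue makeup in its Kat6a level was not tested. Its paralogue Kat6b fell in WT (−0.81, SE 0.24, edgeR adjusted p 0.0458) but was at 46.9, 63.1 and 94.5 CPM in Runx2+/- MS-275, so that replicate 3 was the highest of all 12 libraries. The Kat6a to Kat6b ratio differed by −0.07 on the log2 scale (exact permutation test, adjusted p 0.73). That mean joined 0.27 in WT and −0.40 in Runx2+/-, of opposite sign, and the difference between the genotypes was not tested.

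Kat7 (HBO1) was at 55.8, 54.6 and 60.1 CPM in WT vehicle, 52.8, 56.5 and 53.0 in Runx2+/- vehicle, 47.0, 49.2 and 35.1 in WT MS-275 and 35.4, 42.0 and 46.4 in Runx2+/- MS-275. The gap between the treatments was narrow, from 49.2 to 52.8 CPM. Its log2 fold change was −0.38 (SE 0.17, edgeR adjusted p 0.0984) in WT and −0.39 (SE 0.17, adjusted p 0.219) in Runx2+/-. Over both genotypes Kat7 fell by 0.38 (SE 0.12, edgeR adjusted p 0.0281). Leaving out any 1 of 7 libraries ended that call, at edgeR adjusted p values of 0.0547 to 0.0655: WT vehicle replicate 1 or 2, Runx2+/- vehicle replicate 1 or 2, WT MS-275 replicate 3, and Runx2+/- MS-275 replicate 1 or 2.

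Kat5 (TIP60) moved least. It was at 27.5, 27.4 and 25.3 CPM in WT vehicle, 21.6, 26.4 and 24.5 in Runx2+/- vehicle, 22.8, 23.7 and 26.1 in WT MS-275 and 18.9, 21.9 and 28.1 in Runx2+/- MS-275. All groups overlapped. Over both genotypes the log2 fold change was −0.11 (SE 0.12, edgeR adjusted p 0.481), with a 95% interval of −0.38 to 0.16. The ratio of Kat7 to Kat5 differed by −0.28 (exact permutation test, p = 0.03, adjusted p 0.0525). Exons of Kat5 share 426 of 3509 bases with Rnaseh2c on the opposite strand. Rnaseh2c averaged 14.5 CPM in WT vehicle and 29.1 in WT MS-275 (log2 fold change 1.00, edgeR adjusted p 0.0708), and over both genotypes it rose by 0.84 (edgeR adjusted p 0.0332). Its part in the Kat5 counts was not tested.

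Brd2 was the most abundant of the 9 genes, both in CPM and per length of annotated exons. It was at 185, 205 and 183 CPM in WT vehicle, 188, 189 and 171 in Runx2+/- vehicle, 156, 154 and 124 in WT MS-275 and 96.3, 111 and 135 in Runx2+/- MS-275. The lowest vehicle library, at 171 CPM, was above the highest MS-275 library, at 156. The log2 fold change was −0.40 (SE 0.18, edgeR adjusted p 0.101) in WT and −0.68 (SE 0.18, adjusted p 0.181) in Runx2+/-. Over both genotypes Brd2 fell by 0.54 on the log2 scale, 1.45-fold lower (SE 0.12, edgeR adjusted p 0.0141). Exons of Brd2 share 360 of 7826 bases with H2-DMa, which was at a mean of 3.48 to 4.77 CPM in the 4 groups.

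Brd3, a paralogue of Brd2, fell in WT. It went from 109 to 118 CPM with vehicle to 55.6 to 74.7 with MS-275 (−0.84, SE 0.20, edgeR adjusted p 0.0434). Over both genotypes Brd3 fell by 0.74 (edgeR adjusted p 0.0135), with all 6 MS-275 libraries below all 6 vehicle libraries. The ratio of Brd2 to Brd3 differed by 0.21 on the log2 scale (exact permutation test, adjusted p 0.084). It differed by 0.44 in WT, where the MS-275 libraries (1.06 to 1.30) were all above the vehicle libraries (0.66 to 0.79), and by −0.02 in Runx2+/-. The difference between the genotypes was not tested.

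Per length of annotated exons in WT vehicle, the order was Brd2 at 24.4 ± 1.54 CPM per kb (SD, n = 3), Kat2a at 13.2 ± 0.439, Kat6a at 11.7 ± 2.89, Kat7 at 10.3 ± 0.523, Kat5 at 7.63 ± 0.357, Kat2b at 7.26 ± 0.690, Ep300 at 5.33 ± 0.908, Tada2b at 4.54 ± 0.330 and Crebbp at 3.47 ± 0.553. Libraries of neighbours overlapped for Kat2a and Kat6a, Kat6a and Kat7, Kat5 and Kat2b, and Ep300 and Tada2b. In WT MS-275 Brd2 was at 18.5 ± 2.26 CPM per kb and Kat2b came second. In Runx2+/- MS-275 Tada2b was the lowest, at 2.32 ± 0.212, with libraries overlapping those of Crebbp.

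The genotype comparisons ask whether 1 Runx2 allele alters these genes. With vehicle, log2 fold changes of Runx2+/- against WT were −0.15 to 0.15 for the 9 genes, 0 passed edgeR's test, and 0% of all genes did. None of the 9, and 0.306% of all genes, had an unadjusted p under 0.05. With MS-275, 0 of the 9 and 0% of all genes passed. Tada2b was lower in all 3 Runx2+/- libraries than in any WT library, as were 7.52% of all genes, at −0.50 on the log2 scale (SE 0.16, edgeR adjusted p 0.265, unadjusted p 0.0112; −0.16 when scaled by total count), and 15.8% of all genes had an unadjusted p under 0.05. Brd2 was at −0.35 (SE 0.18, edgeR adjusted p 0.356), and at 0.0603 when scaled by total count. The interaction, taken as the log2 fold change with MS-275 in Runx2+/- less its value in WT, was −0.50 for Tada2b (95% interval −1.01 to 0.01, edgeR adjusted p 0.873) and −0.28 for Brd2 (−0.83 to 0.27, adjusted p 0.877), and −0.17 and 0.11 when scaled by total count. For the interaction, 0 of the 9 and 0% of all genes passed, and 0 of the 9 and 5.30% of all genes had an unadjusted p under 0.05. DESeq2 and limma-voom called 0 of the 9 in these 3 comparisons. Of all genes, DESeq2 called 0% between genotypes with vehicle, 3.91% with MS-275 and 0.211% for the interaction, and limma-voom called 0% in each.

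Runx2+/- MS-275 was also set against WT vehicle, the drug in mutants beside untreated WT. Here 0 of the 9 and 0% of all genes passed edgeR's test. At an unadjusted p under 0.05, 6 of the 9 were lower, beside 23.8% of all genes in either direction. DESeq2 called 2 of the 9, beside 11.6% of all genes, and limma-voom 0, beside 0%. Tada2b was at −0.97 (SE 0.16, edgeR adjusted p 0.123) and Brd2 at −0.74 (SE 0.18, adjusted p 0.129). It shares its libraries with the comparisons above.

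Partners and relatives of the 9 genes were read from 8 lists of 113 genes in WT. Of these, 7 rose and 13 fell, and the median log2 fold change was −0.18, beside −0.13 over all genes; 9.67% of all genes rose and 9.33% fell. Among 11 other acetyltransferases, Hat1, which acetylates newly made histone H4, rose from 31.3 to 41.7 CPM with vehicle to 72.1 to 148 with MS-275 (1.54, SE 0.42, edgeR adjusted p 0.0434), and Kat6b fell. In MS-275 libraries Hat1 was highest, at 148 and 147 CPM, in the pair with the highest erythroid markers, and lowest, at 37.9, where these were lowest. The pair, WT MS-275 replicate 3 and Runx2+/- MS-275 replicate 1, also had the highest mitochondrial shares (23.0% and 24.2%). Its scaling factors were the lowest of all libraries (0.598 and 0.603). Of the 5 erythroid markers only Slc4a1 was called in WT, and it alone fell. Kat8, the MYST enzyme of the MSL and NSL complexes, was at 0.28 (adjusted p 0.192) in WT. Over both genotypes Kat8 rose by 0.37 (edgeR adjusted p 0.0313), with all 6 MS-275 libraries above all 6 vehicle libraries, but was at −0.31 when scaled by total count.

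Of 23 SAGA and ATAC subunits, 2 rose and 0 fell: Eny2, of the deubiquitinase module, by 1.04, and Taf9b by 1.16 (edgeR adjusted p 0.0481 and 0.0492). Both calls were also lost without WT vehicle replicate 3. Trrap, the scaffold shared by SAGA and TIP60, was at −0.66 (SE 0.24, edgeR adjusted p 0.0648). Of 15 TIP60 subunits, Morf4l2 rose by 1.70 and Morf4l1 by 1.31, and the ATPase Ep400 fell by 1.04 (edgeR adjusted p 0.0436, 0.0476 and 0.0459). Morf4l2 was likewise highest, at 1648 and 1567 CPM, in the pair of MS-275 libraries with the highest erythroid markers. Eny2, Taf9b and Morf4l1, and Msl3 and Larp7 named below, were also highest in this pair. Of the 9 described genes, Ep300 (43.0 and 44.4 CPM), Kat6a (63.1 and 65.9), Kat7 (35.1 and 35.4) and Kat2a (26.7 and 20.2) were lowest among MS-275 libraries in this pair. Tada2b, Brd2, Crebbp and Kat5 did not have their 2 lowest MS-275 values there, nor Kat2b its 2 highest. The part of erythroid cells, mitochondrial share or scaling in these partner genes, in Hat1 and in the 9 genes was not tested. Of 9 subunits that join Kat6a, Kat6b or Kat7, 0 rose and 2 fell, the scaffolds Jade1 by 0.80 and Brd1 by 0.74 (edgeR adjusted p 0.0434 and 0.0446). That list had the lowest median, −0.73. Of 9 MSL and NSL subunits, Msl3 rose by 1.09 and Hcfc1 fell by 0.82 (edgeR adjusted p 0.0457 and 0.0487).

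Among 26 other bromodomain and YEATS readers, 0 rose and 6 fell, with a median of −0.32. They included Brd3, the YEATS reader Mllt1 (−0.78, edgeR adjusted p 0.0434) and Cecr2, whose WT libraries had 21.1, 23.5 and 10.3 CPM with vehicle and 2.34, 0.901 and 1.64 with MS-275 (−3.48, SE 0.82, adjusted p 0.0434). Cecr2 was at 27.8 CPM in Runx2+/- MS-275 replicate 3. Of 11 BET partners in elongation, Larp7, which stabilizes the 7SK RNA, rose by 1.15 (edgeR adjusted p 0.0446), and Hexim1, the inhibitor of the elongation kinase, was at 0.27 (adjusted p 0.281) and at −0.54 when scaled by total count. Of 9 factors that bind CBP and p300, the CREB coactivators Crtc3 and Crtc1 fell by 0.80 and 1.10 (edgeR adjusted p 0.0434 and 0.0471), and the median was −0.60. In Runx2+/-, 0 of the 113 passed.

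**Figure D4:**
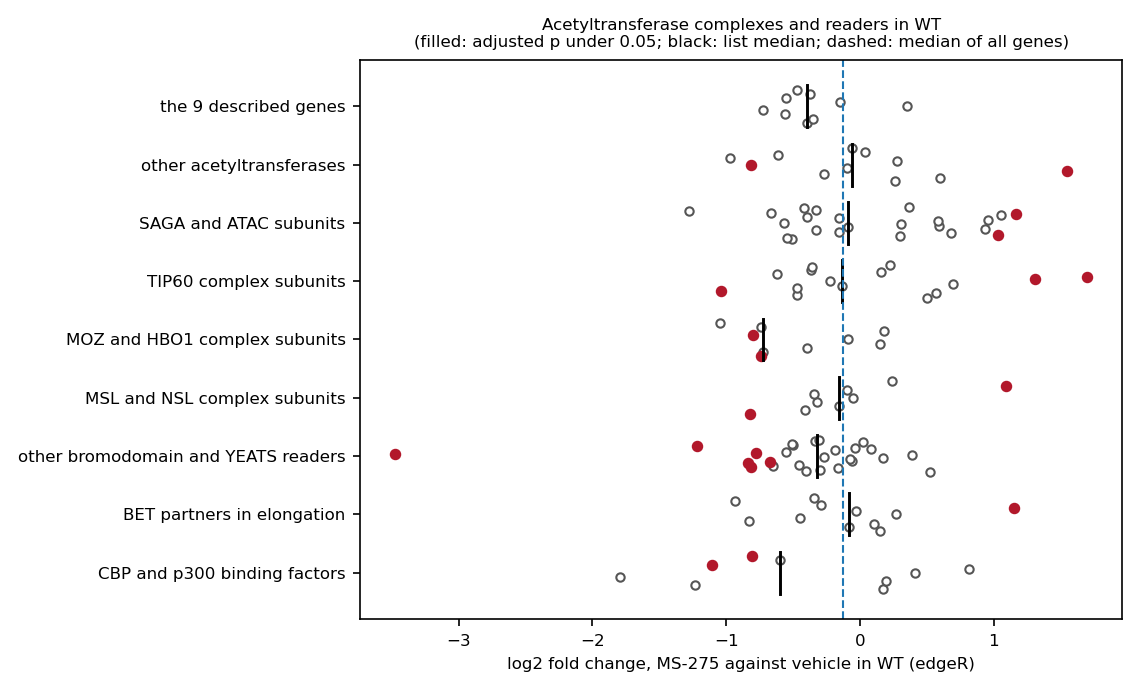
Log2 fold change of MS-275 against vehicle in WT for the 9 genes and the 8 lists of partners, 1 point per gene. Filled points passed edgeR's adjusted p under 0.05, black bars are list medians, and the dashed line is the median of all genes, −0.13. Subunits of the MOZ and HBO1 complexes have the lowest median, −0.73.

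Across the 12 libraries, log2 CPM of the 9 genes gave 36 pairs with a median Pearson r of 0.650; 11 pairs were over 0.8. The highest was Ep300 with Kat6a (0.961), followed by Kat7 with Brd2 (0.908). All 8 negative values involved Kat2b, lowest with Kat2a (−0.889). These values describe libraries that share 4 groups and the same scaling, and the same values over pairs of all genes were not counted. The genes most like Ep300 were Rprd2 (0.991), Rad54l2 (0.983) and Phlpp1 (0.982), and those most like Brd2 were Chd4 (0.981), Rnf220 (0.980) and Spata2 (0.978). For Tada2b they were Nup50 (0.971), Psme3 (0.955) and Tmem158 (0.954). The nearest to Crebbp was Nek4 (0.988), to Kat2a Pim1 (0.988), to Kat6a Arfgef1 (0.975), to Kat7 Hmga1 (0.960), to Kat2b Zfp148 (0.958) and to Kat5 Armc10 (0.893), the loosest of the 9.

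In GENCODE M21 (GRCm38), all 9 are protein-coding genes. Ep300 lies at 15:81585351-81652077 on the plus strand, Crebbp at 16:4081328-4213997 on the minus strand, Kat2a at 11:100704746-100712465 on the minus strand and Kat2b at 17:53566861-53672720 on the plus strand. Kat5 lies at 19:5603014-5610237 on the minus strand, Kat6a at 8:22859535-22943259 on the plus strand and Kat7 at 11:95274259-95310246 on the minus strand. Tada2b lies at 5:36473670-36484285 and Brd2 at 17:34112023-34122634, both on the minus strand.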

How the data were processed

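RNA was sequenced from 12 calvarial libraries with a stranded total RNA kit, per the labels' protocols. The authors deposited whole-number read counts per mouse Ensembl gene, without normalization, made with Trimmomatic, Bowtie2, SAMtools and HTSeq, per the submitters' processing notes. These notes name the build GRCh38.p7, a human build, while the identifiers are mouse. Tool versions and the strand setting were not given in the sources used here. The 5 summary lines of each file that name no gene stayed out; reads in no gene were 5.21% to 22.2%. Symbols were matched for 37607 of 39179 identifiers, and positions come from GENCODE M21.

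Genes were kept by filterByExpr, scaled by trimmed mean of M values (factors 0.598 to 1.33), and fitted with 4 group means in 1 quasi-likelihood model of edgeR 4.0.16 (R 4.3.3; common biological coefficient of variation 0.442), two-sided, with Benjamini-Hochberg adjustment over 17967 genes within a comparison and a threshold of 0.05. The scaling factors differed by treatment: 1.18 to 1.32 with vehicle and 0.598 to 0.820 with MS-275, except 1.33 in Runx2+/- MS-275 replicate 3. For 3 against 3 libraries the smallest exact permutation p is 0.1. Ratios used counts plus 0.5 and permuted treatment within genotype (Python 3.11.15, numpy 2.4.6). Alternatives were DESeq2 1.42.0 (and its size factors), limma 3.58.1, total-count scaling, no filter, a replicate block and libraries left out. On simulated counts for MS-275 in WT (17967 genes), the test recovered 2.02% of genes changed 2-fold and 66.7% of those changed 8-fold, and called 0% of unchanged genes. The share of genes changed in these counts is not given here, and these values hold for that share only. In the data, 3414 genes were called in WT, and recovery with as many changed genes was not tested. Same-numbered libraries of the 2 vehicle groups deviated together (correlations 0.220 to 0.812, all 3 over 0.1). In no other pair of groups were all 3 over 0.1. Yet WT vehicle replicate 1 was closer to Runx2+/- vehicle replicate 2 (0.679) than to Runx2+/- vehicle replicate 1 (0.220). The latter was likewise closer to WT vehicle replicate 2 (0.27). The data therefore do not show that the numbers are pairs, the labels do not say so, and the main fit used no block. Counting precision limits the rarest genes most; reads are not independent molecules.

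The 9 genes, the 8 lists of 113 partners and the 12 marker lists (osteoblast, osteoclast, chondrocyte, epidermis, muscle, neuron, glia, lens, adipocyte, erythroid, macrophage, endothelial) were chosen with earlier results of these data known. Named beyond the 9 were Kat6b, Tada2a, Brd3, Kat8, Hat1, Trrap, Hexim1 and Runx2, at most the 3 lowest p values among called genes of a list in a comparison, and the genes most alike across libraries. Genes whose exons overlap a described gene, Klk7 and Xist were added after their values were seen. In WT, marker genes that rose and fell numbered 6 and 0 of 8 (osteoblast), 2 and 0 of 6 (osteoclast), 1 and 0 of 5 (chondrocyte), 0 and 8 of 8 (epidermis), 0 and 1 of 6 (muscle), 0 and 2 of 7 (neuron), 0 and 3 of 5 (glia), 0 and 0 of 5 (lens, median log2 fold change −6.92), 0 and 0 of 4 tested (adipocyte), 0 and 1 of 5 (erythroid), 1 and 0 of 5 (macrophage) and 1 and 0 of 5 (endothelial). The results of 1 gene fixed for naming, and of its ratio, are not reported here.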

Additional observations from a re-analysis of the deposited data

How the results depend on the processing

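The number of the 9 genes called by edgeR for MS-275 in WT, 0 as reported, was 8 with scaling by total count, 6 with DESeq2, 3 without both WT vehicle replicate 3 and Runx2+/- MS-275 replicate 3, and 0 to 6 with 1 library left out (2 without WT vehicle replicate 3 or Runx2+/- MS-275 replicate 1, 6 without Runx2+/- MS-275 replicate 3). In Runx2+/- it was 3 with DESeq2, 6 without both libraries and 0 to 5 with 1 left out. For Runx2+/- MS-275 against WT vehicle it was 2, 6 and 0 to 5, and over both genotypes 5 to 8. With 1 library left out, 0% to 46.6% of all genes were called in WT and 0% to 32.7% in Runx2+/-. For Runx2+/- MS-275 against WT vehicle these shares were 0% to 35.8%, and over both genotypes 20.4% to 61.7%. Without both libraries, 10114 of 18122 genes were called in WT, 7808 in Runx2+/- and 8646 for Runx2+/- MS-275 against WT vehicle. Scaling by total count turned Kat2b to −0.48 in WT, −0.28 in Runx2+/- and −0.38 over both, and Tada2a to −0.52, Kat8 to −0.56 and Hexim1 to −0.54 in WT; Brd2 between genotypes with MS-275 became 0.0603. This scaling shifts the median of all genes in WT from −0.13 to −0.95, and its WT calls were 526 higher and 7009 lower, against 1738 and 1676. Kat5 in Runx2+/- went from −0.31 without both libraries to 0.0488 without Runx2+/- MS-275 replicate 1. The Kat6a/Kat6b ratio was 0.0067 without both libraries and −0.16 to 0.0411 with 1 left out. The Kat7/Kat5 ratio spanned −0.33 to −0.18 with 1 left out, and passed without WT MS-275 replicate 1 or 2. The Brd2/Brd3 ratio was 0.26 without both libraries and spanned 0.18 to 0.25 with 1 left out, passing without both and without Runx2+/- MS-275 replicate 3. With DESeq2 size factors, Kat2b became 1 gene higher in all 6 MS-275 libraries.

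The count of all genes called in WT, 3414, was 7223 with DESeq2, 1 with limma-voom, 0 without the filter, 10114 without both libraries and 0 to 8480 with 1 left out, with 0 for 8 of the 12. In Runx2+/-, 0 became 1280 with DESeq2, 7808 without both and 5955 without Runx2+/- MS-275 replicate 3. Over both genotypes, 7020 became 12101 without both libraries and 3741 to 11241 with 1 left out. Same-numbered libraries had correlations of −0.655 to 0.812 (median −0.226, 6 of 18 over 0.1). Between the 2 vehicle groups the replicate block changed no call, since 0 genes passed with or without it. With the block, 0 genes were called in WT and 4371 over both genotypes, where 5 of the 9 passed. There, Kat7 (edgeR adjusted p 0.0582) and Kat2b (0.0751) did not. The causes of these changes were not tested. The least counted gene, Tada2b, had 99 counts in its lowest library.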

Other observations

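Over both genotypes, 23 of the 113 partner genes rose and 30 fell, beside 21.1% and 18.0% of all tested genes. SAGA and ATAC subunits held 8 that rose and 5 that fell of 23, and TIP60 subunits 5 and 1 of 15. Subunits that join Kat6a, Kat6b or Kat7 held 1 and 4 of 9, MSL and NSL subunits 1 and 2 of 9, and other acetyltransferases 3 and 4 of 11. Other bromodomain and YEATS readers held 2 that rose and 9 that fell of 26, BET partners 1 and 2 of 11, and factors that bind CBP and p300 held 2 and 3 of 9.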
